A study of Homo sapiens with 3 samples.

Results

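The collagen and laminin genes were taken as every gene of the count table whose identifier belongs to a protein-coding gene with a collagen chain symbol (COL, a number, A, a number) or a laminin chain symbol (LAMA, LAMB or LAMC and a number). This rule gave 56 genes, 44 collagens and 12 laminins, out of 58381 in the table. The RNA came from T24, a line of human bladder carcinoma cells, in 3 conditions with 1 library each. Ctrl is labelled as a control with an empty treatment, and the methods describe a pLKO.1 control vector, although the results of the study call the comparator parental. RT is the control with exposure to ionising radiation, for which the labels give 10 Gy from a 137Cs source. RT + shHDAC6 was irradiated in the same way and carried a lentiviral shRNA against the deacetylase HDAC6. The protocols describe infection and puromycin selection for the control vector and the shRNA vector alike. Because each condition is 1 library, replicates cannot be compared and p-values are absent.

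Collagens are triple helices of 3 chains, and the chains of a type are usually encoded by different genes. Fibrillar collagens such as types I, III and V form the fibres of connective tissue, type IV forms the sheet of basement membranes, and type VI forms beaded filaments beside them. Laminins are trimers of an alpha, a beta and a gamma chain that self-assemble into basement membranes and are bound by integrins and dystroglycan. In epithelia such as the urothelium, a laminin trimer that holds the LAMA3 and LAMB3 chains anchors the basal cells, together with the transmembrane collagen XVII and the anchoring fibrils of collagen VII.

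Ratios were computed as log2 ratios of counts after TMM scaling, each with a 95% interval. With 1 library per condition, the interval covers counting error only. The reads carry no molecular identifiers, so copies of 1 molecule cannot be told apart and the intervals may be too narrow. A gene counts as at least 2-fold different only where its mean over the 3 libraries was at least 10 counts, and the words rose and fell are used only for such genes. Levels between genes are compared as TMM-scaled CPM per kilobase of exon (CPM per kb). Counts are given throughout in the order Ctrl, RT, RT + shHDAC6. Library totals were 41811165, 35959265 and 35424086. HDAC6, the targeted gene, had 3098, 2383 and 2170 counts, so that the library labelled RT + shHDAC6 held 87.2% of the RT level, or -0.20 on the log2 scale (interval -0.28 to -0.11). RT + shHDAC6 below means the library with that label. As a check of the cell line, all 6 epithelial markers had counts in every library, KRT18 most with 7336 to 9048, and so did all 5 mesenchymal markers, VIM most with 74147 to 121716. In neither list did all markers differ in the same direction between the irradiated libraries. For RT + shHDAC6 over RT, 5 of the 6 epithelial markers were above 0 and 1 below, with a median of 0.29. Of the 5 mesenchymal markers, 2 were above 0 and 3 below, with a median of -0.65. The keratin KRT7 had 3533, 3854 and 597 counts and fell by 2.75 on the log2 scale in RT + shHDAC6 over RT, where KRT18 was at 0.05. The cadherin CDH2 fell by 1.04 there and SNAI2 was at -0.91, where VIM was at 0.31. GATA3, a urothelial transcription factor, had 2320, 1423 and 709 counts and fell by 1.07. It was 1 of 3 luminal urothelial markers compared, out of 8 listed. The others went either way for RT + shHDAC6 over RT. PPARG (1298, 650 and 352 counts) was at -0.95 and FOXA1 (509, 303 and 386) at 0.29. Of 4 basal urothelial markers, 2 were above 0 there and 2 below, with a median of 0.15. The uroplakins, which mark differentiated urothelium, were nearly absent, with at most 3 counts for UPK1B, UPK2 and UPK3A and at most 18 for UPK1A.

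Markers of other cell types were also present in this cell line RNA. All 6 fibroblast and pericyte markers and all 4 endothelial markers had counts in every library. The 6 summed to 2491, 1263 and 1480 counts, with DCN at 1085, 525 and 683, but PDGFRB (391, 245 and 176 counts) and FAP (74, 44 and 37) were lowest in RT + shHDAC6 and not in RT. The 4 endothelial markers summed to 1138, 531 and 740, and the 4 leukocyte markers to 188, 108 and 114. A list of 11 immunoglobulin genes, which cells of the B lineage express, was added after the data had been seen and summed to 4356, 1882 and 2651, with IGHG1 at 1803, 821 and 1132. On the log2 scale the immunoglobulin sum differed by -0.78 (interval -0.85 to -0.70) for RT over Ctrl and by 0.43 (interval 0.35 to 0.52) for RT + shHDAC6 over RT. The fibroblast and pericyte sum differed by -0.54 and 0.17. A list of 4 smooth muscle markers, also added later, differed by -0.56 and 0.18. After scaling these sums are lowest in RT, although not every gene in them is. For RT + shHDAC6 over RT the counting intervals of the smooth muscle sum (-0.03 to 0.39) and the leukocyte sum (-0.38 to 0.41) held 0. For these, the order of the irradiated libraries is not settled. Where members below are lowest in RT, their values stand beside those of the sums. The epithelial markers EPCAM, CDH1, KRT8 and KRT19 were also lowest in RT after scaling. For RT over Ctrl they were at -0.39, -0.55, -0.49 and -0.67. For RT + shHDAC6 over RT they were at 0.51, 0.23, 0.35 and 0.39. KRT18 and KRT7 were not lowest in RT, at 0.62 and 0.56 for RT over Ctrl.

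Of the 56 genes, 32 averaged at least 100 counts, 9 had a mean of 10 to 100, and 15 lay under 10. The collagens took 0.233%, 0.310% and 0.209% of all counts, and the laminins took 0.189%, 0.218% and 0.212%. A few genes carried most of them. COL6A1, COL6A2 and COL18A1 held 25.0%, 18.0% and 20.1% of the collagen counts in Ctrl, and LAMA5, LAMB2, LAMB3 and LAMC1 held 33.1%, 25.1%, 21.5% and 14.7% of the laminin counts. Per length, LAMB3 was the highest member in RT at 201 CPM per kb, followed by COL6A1 at 175, COL6A2 at 131 and COL18A1 at 105. In Ctrl COL6A1 led at 97.3 CPM per kb, ahead of LAMB3 at 80.6 and COL6A2 at 72.4.

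**Figure D1:**
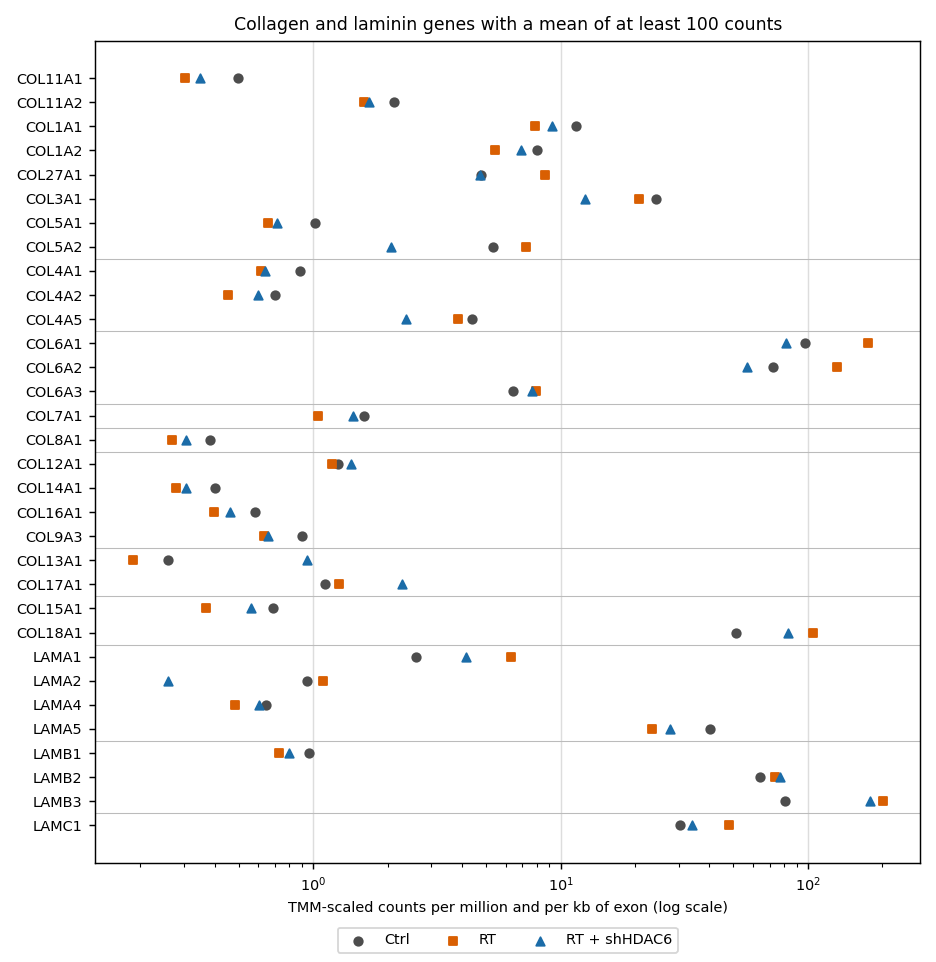
TMM-scaled CPM per kb of exon on a log axis for the 32 members with a mean of at least 100 counts, with 1 point per library and lines between subfamilies. COL6A1, COL6A2, COL18A1, LAMB2, LAMB3, LAMA5 and LAMC1 lie highest, and COL13A1 and LAMA2 show the widest gaps between RT and RT + shHDAC6.

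For RT over Ctrl, 3 of the 41 members compared rose at least 2-fold (COL18A1, LAMA1 and LAMB3), beside 4.62% of all 18761 genes compared. The members that fell at least 2-fold were 4 genes of low count (COL4A6, COL5A3, COL6A6 and COL8A2), beside 6.36% of all genes. In RT + shHDAC6 over RT, 4 rose (COL13A1, COL4A6, COL5A3 and COL8A2), beside 3.35% of all genes, and 4 fell (COL5A2, COL6A1, COL6A2 and LAMA2), beside 4.26%. In RT + shHDAC6 over Ctrl, 3 rose (COL13A1, COL17A1 and LAMB3), beside 4.44%, and 2 fell (COL5A2 and LAMA2), beside 7.82%. As shares of the 41 members these are 7.32%, 9.76%, 9.76%, 9.76%, 7.32% and 4.88% in that order, so 1 gene more or less moves them by several percentage points. The comparisons share libraries, so a low value in RT alone gives a fall in the first and a rise in the second.

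The rule of the study, NOISeq with TMM and a probability over 0.4, was re-implemented and calls many more genes. Over all genes it called 6692 higher for RT over Ctrl and 4975 lower for RT + shHDAC6 over RT. The study reports other totals for these sets, so the calls below are those of the re-implementation and not the study's own. For RT over Ctrl it called 13 of 54 members with a count higher and 28 lower, beside 20.3% and 21.8% of all genes with a count. Between RT + shHDAC6 and RT it called 13 of 53 higher and 13 lower, beside 13.6% and 15.7%. Between RT + shHDAC6 and Ctrl it called 10 of 55 higher and 22 lower, beside 19.4% and 21.2%. The 28 lower members are 51.9% of those with a count. These shares are not matched for abundance. A mean of at least 10 counts was met by 41 members, beside 54 with a count. It was met by 18761 genes, beside 32923 with a count. With no replicate, the noise of the procedure holds counting error alone.

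The median log2 ratio of the 41 members was -0.44 for RT over Ctrl, 0.14 for RT + shHDAC6 over RT and -0.30 for RT + shHDAC6 over Ctrl, while the medians of all genes were -0.028, -0.0066 and -0.026. These medians depended on abundance. Of the 26 members with a mean of 10 to 1000 counts, 23 had a negative ratio in RT over Ctrl, with a median of -0.52, beside 59.5% of all genes in that range, with a median of -0.16. Of the 15 members above that range, 10 had a positive ratio, with a median of 0.45, beside 60.5% of such genes and a median of 0.12. For RT + shHDAC6 over RT the medians of the same members were 0.21 and -0.50, and those of all genes in the ranges were 0.016 and -0.024. The share of abundant members above 0 (66.7%) was thus close to that of all abundant genes, whereas the share of less abundant members below 0 (88.5%) lay above that of all genes in their range.

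In 13 of the 41 members the counting intervals of both comparisons held the ratio of the immunoglobulin sum. All 13 were among the 26 less abundant members (50%), where 35.4% of all genes in that range did so, and 0 of the 15 abundant members did, beside 0.214% of all abundant genes. Among them were COL7A1, COL14A1, COL15A1, COL16A1 and LAMA3. Wide intervals make such a match easier at low counts. The part of RNA from other cell types in these ratios was not tested. In bulk RNA, fewer cells of a type and less RNA per cell cannot be told apart.

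**Figure D2:**
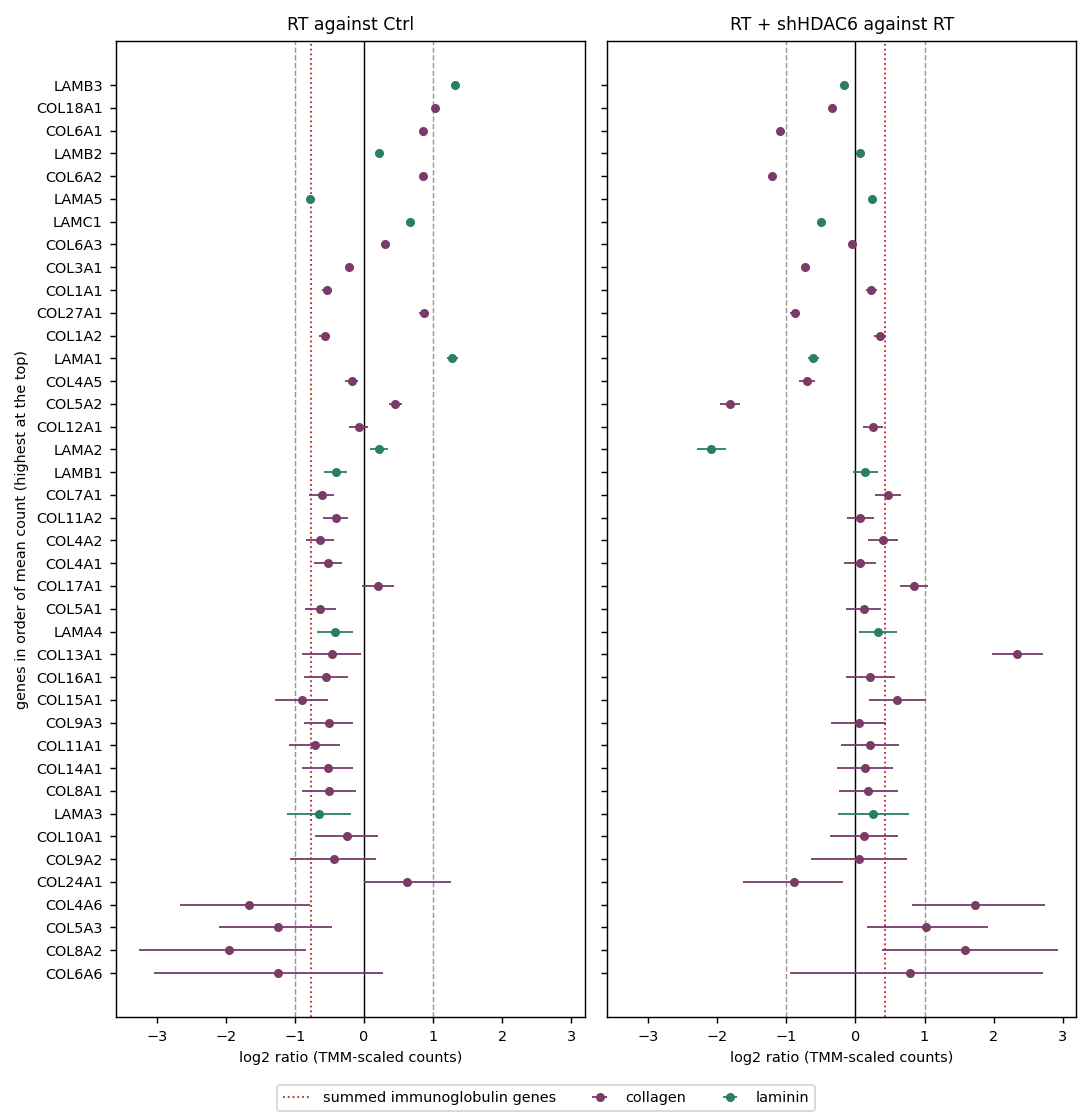
Log2 ratios of TMM-scaled counts with 95% counting intervals for 40 members with a mean of at least 10 counts, ordered by mean count, for RT over Ctrl (left) and RT + shHDAC6 over RT (right). Dashed lines mark 2-fold and the dotted line the summed immunoglobulin genes (-0.78 and 0.43), and most of the less abundant members in the left panel lie to the left of 0.

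Collagen VI gave the most abundant collagen RNA and its chains did not differ in the same way. COL6A1 (chromosome 21, 45981770 to 46005050, GRCh38) had 24438, 32545 and 15869 counts. COL6A2 (chromosome 21, 46098112 to 46132848) had 17525, 23454 and 10544. Both were highest in RT and lowest in RT + shHDAC6. COL6A3 (chromosome 2, 237324003 to 237414328), which encodes the longest chain of the trimer, had 6287, 5716 and 5785.

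For RT over Ctrl the log2 ratio was 0.85 for COL6A1 (interval 0.82 to 0.87) and 0.86 for COL6A2 (interval 0.83 to 0.88), both short of 2-fold. In RT + shHDAC6 both fell against RT, by 1.10 (interval -1.13 to -1.07) and 1.22 (interval -1.25 to -1.18) on the log2 scale, that is to 46.7% and 43.1% of the RT level. Against Ctrl they were at -0.25 and -0.36. COL6A3 was at 0.30 for RT over Ctrl and at -0.04 (interval -0.10 to 0.01) for RT + shHDAC6 over RT, where the sign turned positive with scaling by library totals. Per length, COL6A1 stood at 15.1 times COL6A3 in Ctrl, 22.1 times in RT and 10.7 times in RT + shHDAC6, whereas COL6A2 stayed at 0.744, 0.748 and 0.690 of COL6A1. The genes for COL6A1 and COL6A2 lie on the same strand, 93061 bases apart. COL6A6 had 16, 5 and 9 counts, so its fall in RT over Ctrl (-1.24) has an interval that holds 0 (-3.05 to 0.27), and COL6A5 reached at most 4 counts.

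To set the start regions of differing members side by side, 220 bases are shown for 4 of them, from 250 to 31 bases before the RefSeq start in the direction of the gene (RefSeq promoter table, build GRCh38.p14, plus strand). They are a collagen VI gene that fell in RT + shHDAC6 over RT, the collagen IV gene that shares its start region with COL4A6, the member with the highest ratio in that comparison, and the member with the lowest. Capitals mark matches on either strand to the letters searched, and no match overlapped another. The letters were CCAAT of the CCAAT box, TATAAA of the TATA box, GGGCGG of the GC box, TGANTCA (N is any base) of sites for AP-1 factors and the E-box CACCTG.
COL6A2, chr21:46097862-46098081: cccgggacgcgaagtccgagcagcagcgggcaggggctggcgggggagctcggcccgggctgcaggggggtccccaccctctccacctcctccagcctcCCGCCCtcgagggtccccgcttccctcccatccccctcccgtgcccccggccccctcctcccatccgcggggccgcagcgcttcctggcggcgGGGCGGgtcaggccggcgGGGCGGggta
COL4A5, chrX:108439588-108439807: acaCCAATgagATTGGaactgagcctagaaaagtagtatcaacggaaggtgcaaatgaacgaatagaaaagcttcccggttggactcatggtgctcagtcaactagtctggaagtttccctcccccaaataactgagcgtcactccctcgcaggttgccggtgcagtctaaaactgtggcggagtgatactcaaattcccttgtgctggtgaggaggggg
COL13A1, chr10:69801656-69801875: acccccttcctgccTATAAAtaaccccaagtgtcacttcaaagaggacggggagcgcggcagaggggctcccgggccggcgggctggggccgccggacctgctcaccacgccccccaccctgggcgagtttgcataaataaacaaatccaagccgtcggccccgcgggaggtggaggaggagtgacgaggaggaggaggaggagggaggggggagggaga
LAMA2, chr6:128882888-128883107: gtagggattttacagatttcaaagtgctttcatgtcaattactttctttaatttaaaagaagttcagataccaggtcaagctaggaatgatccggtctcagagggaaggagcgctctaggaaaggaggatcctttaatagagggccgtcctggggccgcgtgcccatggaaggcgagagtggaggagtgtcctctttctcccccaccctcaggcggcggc
The COL6A2 window is 80% G and C with 23 CpG and 3 GGGCGG matches, the letters of a GC box. The COL4A5 window holds 2 CCAAT matches on opposite strands, the COL13A1 window 1 TATAAA and the LAMA2 window none of the 5 motifs. The TATAAA of COL13A1 lies 236 bases before the start. Bases nearer to the start than 31 were not searched, so a TATA box there would be missed. Their G and C shares are 50%, 66.4% and 50.9%. Over 35116 promoters of the table, the same window held the GC box in 38.9%, the CCAAT box in 29.8%, the E-box in 16.0%, the TATA box in 8.08% and the AP-1 letters in 5.98%. Of the 56 members, 41 had a promoter in the table. A match describes letters only.

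Among the fibrillar collagens the chains of type I were lowest in RT. COL1A1 had 4706, 2388 and 2921 counts, and COL1A2 had 3942, 1967 and 2627. Their log2 ratios for RT over Ctrl were -0.54 (interval -0.62 to -0.47) and -0.57 (interval -0.65 to -0.49), and for RT + shHDAC6 over RT 0.23 and 0.36. The count ratio of COL1A1 to COL1A2 stayed at 1.19, 1.21 and 1.11. The fibroblast and pericyte sum had the same order, at -0.54 and 0.17, with PDGFRB and FAP as the exceptions given above, and its part in the collagen I values was not tested.

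COL3A1 and COL5A2, which lie 19151 bases apart on opposite strands of chromosome 2, were lowest in RT + shHDAC6 instead. COL5A2 (chromosome 2, 189031898 to 189225312), a chain of the type V collagen that nucleates type I fibrils, had 1766, 1785 and 529 counts. It fell in RT + shHDAC6 by 1.82 (interval -1.96 to -1.68) against RT and by 1.37 (interval -1.51 to -1.23) against Ctrl on the log2 scale. COL3A1 (chromosome 2, 188974373 to 189012746), the chain of type III collagen, had 7426, 4701 and 2971 counts, with log2 ratios of -0.22 for RT over Ctrl, -0.72 for RT + shHDAC6 over RT and -0.95 for RT + shHDAC6 over Ctrl. COL5A1, whose product pairs with that of COL5A2, had 516, 246 and 279 counts, with -0.63 and 0.12 for the first 2 comparisons. It did not share the fall of COL5A2 between the irradiated libraries. The interval of the second ratio (-0.13 to 0.37) holds 0, so the order of COL5A1 in these 2 libraries is not settled.

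COL27A1, a fibrillar collagen of cartilage, was highest in RT, with 3021, 4078 and 2318 counts and log2 ratios of 0.87 for RT over Ctrl and -0.88 for RT + shHDAC6 over RT. Both lay short of 2-fold. The type XI chains were lower in RT than in Ctrl. COL11A1 had 204, 92 and 111 counts (-0.71 and 0.21) and COL11A2 710, 395 and 433 (-0.41 and 0.07). Their counting intervals for RT + shHDAC6 over RT held 0. COL5A3 had 58, 18 and 38 counts, a fall of 1.25 on the log2 scale (interval -2.10 to -0.47) and then a rise of 1.02 (interval 0.17 to 1.91). COL24A1 had 42, 48 and 27 counts, and COL2A1 of cartilage at most 11.

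Of the collagen IV genes, which build the basement membrane sheet, COL4A5 was the most abundant. It had 2354, 1538 and 986 counts, with log2 ratios of -0.18, -0.70 and, for RT + shHDAC6 over Ctrl, -0.88 (interval -0.99 to -0.77). COL4A6 starts 341 bases away on the other strand of chromosome X, beside the COL4A5 window printed above, and had 56, 13 and 45 counts. It fell by 1.67 in RT (interval -2.67 to -0.78) and rose by 1.73 in RT + shHDAC6 over RT (interval 0.81 to 2.74). The count ratio of COL4A5 to COL4A6 was 118 in RT and 21.9 in RT + shHDAC6, and these neighbours did not differ together. COL4A1 and COL4A2, the chains found in nearly all basement membranes, were lower in RT with 588, 302 and 329 counts and 612, 292 and 402, at -0.53 and -0.63 on the log2 scale for RT over Ctrl. Their genes overlap on opposite strands, with starts 1345 bases apart. The pair COL4A3 and COL4A4, whose starts lie 171 bases apart, reached at most 4 and 12 counts.

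COL18A1, a multiplexin of basement membranes and the source of endostatin, rose in RT. It had 19635, 29728 and 24582 counts, with log2 ratios of 1.03 (interval 1.01 to 1.06) for RT over Ctrl, -0.34 for RT + shHDAC6 over RT and 0.70 for RT + shHDAC6 over Ctrl. The rise lies close to 2-fold and was 0.82 with library totals. Because 18.5% of its exon length lies under a gene on the other strand and the strand setting of the counting is not given, a part of these counts could be reads of that gene. Its relative COL15A1 had 207, 82 and 130 counts, at -0.90 and 0.60.

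The transmembrane collagens held the member with the highest ratio in RT + shHDAC6. COL13A1 (chromosome 10, 69801880 to 69964275), a collagen of cell adhesion sites and the neuromuscular junction, had 135, 72 and 380 counts. It rose 5.06-fold against RT, or 2.34 on the log2 scale (interval 1.97 to 2.72), and 3.65-fold against Ctrl, or 1.87 on the log2 scale (interval 1.58 to 2.16). COL17A1 (chromosome 10, 104031286 to 104085880), the hemidesmosomal collagen of basal epithelial cells, had 352, 299 and 560 counts. It rose in RT + shHDAC6 over Ctrl by 1.04 on the log2 scale (interval 0.85 to 1.24), or by 0.91 with library totals, and was at 0.84 against RT. COL23A1 and COL25A1, the other members of the group, reached at most 6 counts each.

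The remaining collagens with counts were mostly lower in RT. COL7A1, the anchoring fibril collagen, had 808, 390 and 562 counts, at -0.62 for RT over Ctrl and 0.46 for RT + shHDAC6 over RT. COL12A1, which associates with fibrils and was the most abundant of its group, had 1080, 756 and 942 counts, at -0.08 (interval -0.22 to 0.06) and 0.26. Of the other fibril-associated and short-chain members, COL14A1 had 185, 95 and 109 counts (-0.53 and 0.14), COL16A1 244, 123 and 149 (-0.55 and 0.21), COL9A3 198, 103 and 111 (-0.51 and 0.05) and COL8A1 163, 85 and 101 (-0.50 and 0.19). Each of these 4 was lowest in RT and did not reach the Ctrl level in RT + shHDAC6, and their counting intervals for RT + shHDAC6 over RT held 0. Below a mean of 100 counts, COL8A2 fell from 42 counts to 8 and had 25 in RT + shHDAC6, COL9A2 had 66, 36 and 39, and COL10A1 had 109, 68 and 77.

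The laminins differed by chain. LAMB3 (chromosome 1, 209614870 to 209652425), the beta chain of the epithelial anchoring laminin, rose in RT. It had 16996, 31321 and 29107 counts. The log2 ratio was 1.32 (interval 1.29 to 1.34) for RT over Ctrl and 1.15 (interval 1.12 to 1.18) for RT + shHDAC6 over Ctrl, and it was at -0.17 between the irradiated libraries. LAMB3 took 21.5%, 40.0% and 38.8% of the laminin counts.

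Its alpha partner was scarce. LAMA3 (chromosome 18, 23689453 to 23956222) had 127, 60 and 75 counts. Per length, LAMB3 stood 417 times as high as LAMA3 in Ctrl, 1628 times in RT and 1210 times in RT + shHDAC6. LAMA3 was at -0.65 (interval -1.11 to -0.19) for RT over Ctrl, where LAMB3 rose. Protein chains of this trimer were not measured here.

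Among the alpha chains LAMA5 was the most abundant and LAMA1 the one that rose. LAMA5, the alpha chain common in adult epithelial basement membranes, had 26159, 11244 and 13802 counts. Its log2 ratio for RT over Ctrl was -0.78 (interval -0.81 to -0.75), past 2-fold with library totals, and 0.23 for RT + shHDAC6 over RT. The immunoglobulin sum also stood at -0.78 in the first comparison and at 0.43 in the second, outside the LAMA5 interval of 0.20 to 0.27. The part of RNA from other cell types in the LAMA5 values was not tested. LAMA1, an alpha chain of the early embryo, had 1876, 3366 and 2300 counts. It rose in RT by 1.28 on the log2 scale (interval 1.20 to 1.36) and stood at -0.61 in RT + shHDAC6 over RT, with 11.1% of its exon length under genes on the other strand. The LAMA5 level per length was 15.5 times that of LAMA1 in Ctrl, 3.71 times in RT and 6.66 times in RT + shHDAC6.

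LAMA2 (chromosome 6, 128883138 to 129516566), the alpha chain of muscle and nerve basement membranes, had the lowest ratio of all members in RT + shHDAC6 over RT. It had 1131, 972 and 239 counts. It fell to 23.6% of the RT level, or -2.09 on the log2 scale (interval -2.30 to -1.88), and to 27.4% of the Ctrl level, a log2 ratio of -1.87. For RT over Ctrl it was at 0.22, with a negative sign under library totals. LAMA4, the alpha chain of vessels, had 351, 194 and 254 counts, at -0.42 and 0.33.

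LAMB2 and LAMC1 are shared by several trimers. LAMB2 had 19853, 17016 and 18583 counts, at 0.21 for RT over Ctrl, with a negative sign under library totals, and at 0.06 for RT + shHDAC6 over RT. LAMC1 had 11598, 13619 and 10079 counts, at 0.67 (interval 0.63 to 0.70) and -0.50 (interval -0.53 to -0.46). LAMB1 had 813, 452 and 521 counts, at -0.41 and 0.14. Per length, the ratio of LAMB3 to LAMB2 was 1.26, 2.72 and 2.31 in the same order of libraries.

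**Figure D3:**
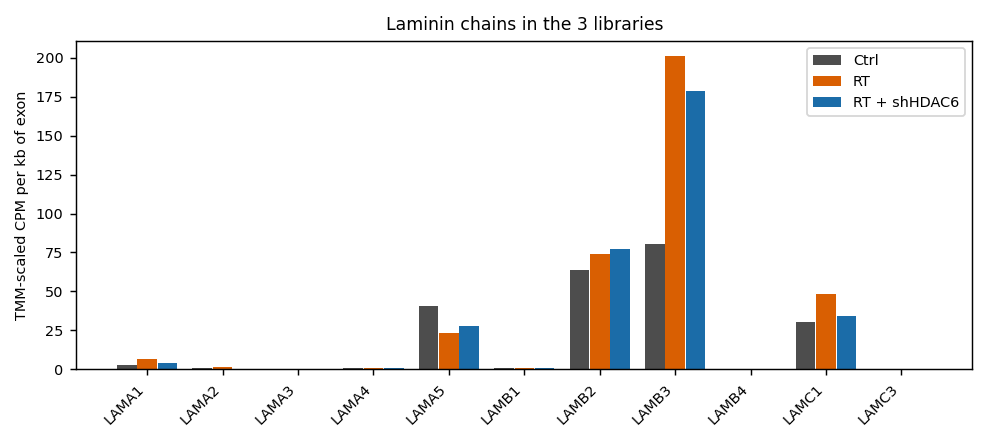
TMM-scaled CPM per kb of exon for 11 laminin chains, with 1 bar per library on an axis from 0. LAMB3 stands at 80.6, 201 and 179 in Ctrl, RT and RT + shHDAC6, while the bars of LAMA3 cannot be seen at this scale.

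The 15 members under a mean of 10 counts are named with their highest count and were not compared. They were COL2A1 (11), COL4A3 (4), COL4A4 (12), COL6A5 (4), COL9A1 (1), COL19A1 (1), COL20A1 (3), COL21A1 (8), COL22A1 (6), COL23A1 (6), COL25A1 (6), COL26A1 (2), COL28A1 (13), LAMC3 (15) and LAMB4. LAMB4 had 0 counts in every library, which allows up to 0.0718, 0.0834 and 0.0847 CPM. At this depth these genes were at or near the limit of detection.

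Collagen chains are hydroxylated and glycosylated in the endoplasmic reticulum before they fold. The list for this step has 25 genes and also holds genes of export from the endoplasmic reticulum and a transcription factor. Of the 25, 23 were compared for RT over Ctrl. Of these 9 rose at least 2-fold and 0 fell, with a median log2 ratio of 0.88, and 20 of the 23 were above 0. SERPINH1, the collagen chaperone, had 2815, 6829 and 5780 counts and rose by 1.71 (interval 1.65 to 1.78). P3H2, a prolyl hydroxylase with a preference for collagen IV, had 2847, 6014 and 2384 counts and rose by 1.51. PLOD1 (1.08) and PLOD3 (1.39), which hydroxylate lysines, also rose, and so did the prolyl hydroxylase genes P3H1 (1.11), P3H3 (1.06) and their relative P3H4 (1.40), their partner CRTAP (1.24) and the galactosyltransferase COLGALT1 (1.23).

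For RT + shHDAC6 over RT, 0 of the 23 rose and 1 fell, P3H2 by 1.40 on the log2 scale, and the median was -0.45. For RT + shHDAC6 over Ctrl only SERPINH1 of these genes passed 2-fold, at 1.41, and the median was 0.44. The background shares of all genes given above, at a mean of at least 10 counts, apply to these lists too. Fold calls depended on abundance, however, and most of these genes averaged at least 1000 counts. Of all 7020 genes that did, 366 rose at least 2-fold for RT over Ctrl and 30 fell. In that comparison 60.5% of them were above 0, with a median of 0.12. For RT + shHDAC6 over RT 17 of them rose and 71 fell. The lists were written with earlier results of these data known.

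Of 15 genes for cleaving and crosslinking, 14 were compared. For RT over Ctrl 1 rose and 1 fell, with a median of -0.055. PCOLCE2, an enhancer of procollagen cleavage, rose by 1.22, from 1068 to 1835 counts. In RT + shHDAC6 0 rose and 2 fell against RT, with a median of -0.41. ADAMTS3, a procollagen protease, fell by 2.12 (interval -2.79 to -1.49), from 108 counts to 26, and by 2.33 against Ctrl.

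Among 32 other matrix genes, 28 were compared, with medians of -0.30 for RT over Ctrl and 0.21 for RT + shHDAC6 over RT. In the first, 0 rose and 3 fell, of which FMOD, a fibril-binding proteoglycan, had 182, 61 and 93 counts and fell by 1.14. In the second, 1 rose and 3 fell. NID1, which links laminin to collagen IV, had 6965, 9416 and 4453 counts and fell by 1.14 (interval -1.19 to -1.09), NTN4, a laminin-related netrin, fell by 1.20, and MATN2, a matrilin, fell by 1.08. For RT + shHDAC6 over Ctrl 0 of the 28 passed 2-fold either way. The summed counts of the list had signs opposite to its medians. The sum was at 0.51 for RT over Ctrl and at -0.18 for RT + shHDAC6 over RT, and abundant genes weigh most in it.

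Of 18 receptors, 17 were compared. DAG1, the dystroglycan gene, rose by 1.09 in RT, from 16822 to 26437 counts, and CD44 rose by 1.04, while 1 fell. ITGB4, the integrin beta chain of hemidesmosomes, had 9774, 3672 and 9653 counts. It rose by 1.33 (interval 1.28 to 1.39) in RT + shHDAC6 over RT, and ITGA1, of the collagen receptor, fell by 1.02, from 458 counts to 236. Their medians were 0.24 for RT over Ctrl, -0.22 for RT + shHDAC6 over RT and -0.020 for RT + shHDAC6 over Ctrl. In the last comparison 2 fell, of which ITGA10, a collagen-binding integrin chain, had 12965, 6549 and 4999 counts.

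**Figure D4:**
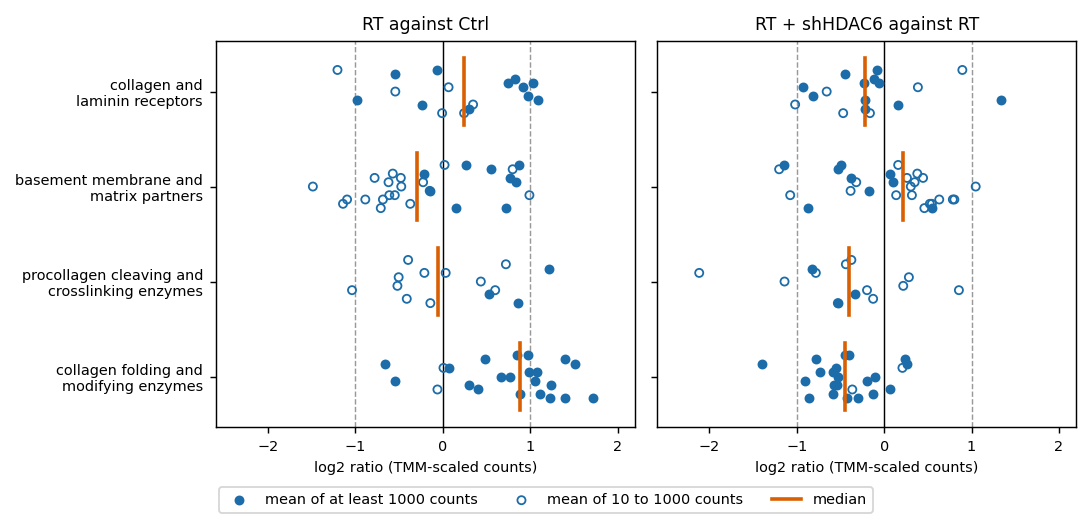
Log2 ratios of TMM-scaled counts for the compared genes of 4 lists around the collagens and laminins, for RT over Ctrl (left) and RT + shHDAC6 over RT (right), with filled points for a mean of at least 1000 counts and a bar at the median. The list of folding and modifying enzymes, which also holds export genes, has medians of 0.88 and -0.45, and the matrix partners -0.30 and 0.21. The summed counts of the matrix partners gave 0.51 and -0.18.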

How the data were processed

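RNA-seq of T24 cells in 3 conditions, 1 library each, was analysed. The authors used cutadapt for trimming, STAR (2.6.1a in the submitters' processing notes) for alignment to GRCh38 and featureCounts with GENCODE release 28, and they deposited raw read counts without normalisation. The strand setting and the handling of multi-mapping reads are not given in the sources used here, so paralogs and overlapping genes could share counts. The library kit differs between labels and paper. Of 58381 identifiers, 57754 matched GENCODE release 44, which gave symbols, exon lengths and positions; 0 columns of per-sample values were left unused.

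TMM factors were computed over the whole table (edgeR 4.0.16, R 4.3.3), with a count of 0 set to 0.5 in ratios. Intervals are 95% Clopper-Pearson intervals of the 2 counts (scipy 1.17.1). The count tests of edgeR and DESeq2 need replicates and were not run, so a gene was called by a 2-fold ratio at a mean of at least 10 counts over the libraries. The NOISeq procedure without replicates was re-implemented with 5 noise samples per library of 20% of depth. The code was tested on simulated data. Alternatives changed the scaling (DESeq2 1.42.0 for median of ratios), zeros, filters, fold and centring on exon length or GC content.

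Genes with a mean of at least 100 counts are named with counts and ratios, those of 10 to 100 with counts, and those under 10 with their highest count. Genes of the 4 lists of enzymes, matrix partners and receptors are named when past 2-fold with a mean of at least 100 counts. The members and lists were chosen with earlier results of these data known, and the immunoglobulin and smooth muscle lists after these counts were seen. A gene covered by these rules is not reported here by name and is not drawn, although the counts and medians over all members include it.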

Additional observations from a re-analysis of the deposited data

How the results depend on the processing

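The count of members past the threshold depended on the threshold. Except for the NOISeq procedure, the share of all genes past each alternative was not computed. The counts below therefore show that dependence only, and not a difference of the members from all genes. With 1.5-fold in place of 2-fold, 8 were higher and 11 lower for RT over Ctrl, 7 and 9 for RT + shHDAC6 over RT, and 5 and 4 for RT + shHDAC6 over Ctrl. The NOISeq procedure gave 13 and 28, 13 and 13, and 10 and 22. Without the filter on low counts, 10 were lower for RT over Ctrl, and 5 were higher and 5 lower for RT + shHDAC6 over Ctrl. With a mean of at least 100 counts, 0 were lower for RT over Ctrl and 1 was higher for RT + shHDAC6 over RT, since the members lost have low counts. With library totals, 4 were lower for RT + shHDAC6 over Ctrl. Scaling by totals moved the median of all genes by -0.22 for RT over Ctrl, 0.084 for RT + shHDAC6 over RT and -0.13 for RT + shHDAC6 over Ctrl. The medians of the members kept their signs under every alternative run, from -0.66 to -0.38, 0.095 to 0.22 and -0.43 to -0.25 in that order. The alternatives did not split the members by a mean of 1000 counts. For the 15 members of at least 1000 counts the medians were 0.45, -0.50 and -0.21. The signs for RT over Ctrl and for RT + shHDAC6 over RT were thus reversed there. No member past 2-fold with a mean of at least 100 counts changed sign. COL18A1 lost 2-fold for RT over Ctrl under totals (0.82), upper quartile (0.98) and GC centring (0.91), and COL17A1 lost it for RT + shHDAC6 over Ctrl under totals (0.91) and GC centring (0.97). Under totals COL15A1 (-1.12) and LAMA5 passed it for RT over Ctrl, and COL3A1 (-1.08) and COL4A5 (-1.02) for RT + shHDAC6 over Ctrl. The causes of these moves were not tested. No library could be left out, because each condition has 1. Depth limits the members under 100 counts, whose intervals span up to several fold.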
